A study of Macaca fascicularis with 2 samples.

Results

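The cells described here are collagen-rich stromal cells of the fetal monkey ovary that carry RNA of POSTN, OGN, LUM, ASPN and RSPO3. A cell was counted among them when COL1A1, COL1A2 and COL3A1 together reached 50 of every 10000 of its unique molecular identifiers (UMIs, each standing for 1 captured RNA molecule), when it held at least 4 UMIs of those 5 genes from at least 2 of them, and when these outnumbered its UMIs of WFDC1, SPON2, C7, CYGB and GBP1. This rule chose 1773 of the 20967 cells in the table, a share of 8.46% (exact binomial 95% interval 8.08 to 8.84). The ovaries came from 1 Macaca fascicularis fetus of embryonic day 84 (E84) and 1 of day 116 (E116), both untreated as far as the labels say. The 2 ovaries of a fetus were digested with enzymes and made into 1 droplet library of RNA 3′ ends, and both libraries are in a single table. Cell barcodes there end in 1 or 2, but nothing ties an ending to an age, so all cells were treated as 1 pooled sample and no result by age is given. There are no replicates, and no test between groups of cells was made. All intervals cover counting error only, not differences between animals.

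Stromal fibroblasts build the connective tissue between the germ cell nests, the follicles and the vessels of the ovary, and some of them later become theca and interstitial cells. POSTN encodes periostin, a matricellular protein that binds collagen. Lumican (LUM), osteoglycin (OGN) and asporin (ASPN) are small leucine-rich proteoglycans, which regulate the thickness and spacing of collagen fibrils, and RSPO3 encodes R-spondin 3, a secreted protein that strengthens WNT signalling.

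The barcode endings divided these cells unevenly. Of the 1773 cells, 1416 had barcodes ending in 1 and 357 in 2, or 13.3% and 3.45% of all cells with that ending. The mirrored rule, with the roles of the 5-gene sets exchanged, chose 1608 cells, called WFDC1 SPON2 C7 cells below, and of these 145 ended in 1 and 1463 in 2. A comparison of the 2 kinds of stroma over all cells is therefore also largely a comparison of the endings, and values within each ending are given beside it. POSTN OGN LUM cells had a median of 3416 UMIs (3109 in ending 1, 4697 in ending 2) and WFDC1 SPON2 C7 cells 5440. Of all barcodes, 27 occurred under both endings, and 7 of the POSTN OGN LUM cells carried such a barcode.

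General fibroblast genes were high in the chosen cells. The level of a gene is given as its summed UMIs in counts per 1000000 UMIs of all genes in the same cells (CPM). The proteoglycan decorin (DCN), which the rule did not use, stood at 4567 CPM (exact Poisson 95% interval 4523 to 4612) against 675 CPM in all other cells. PDGFRA, the PDGF receptor of mesenchymal cells, was at 87.9 against 9.51 CPM, the transcription factor TCF21 at 355 against 85.6 CPM and the nuclear receptor NR2F2 at 753 against 167 CPM. The summed level of 9 granulosa markers was 279 CPM against 755 CPM in all other cells, that of 9 germ cell markers 106 against 720 CPM, and that of 10 endothelial markers 105 against 299 CPM. The 7 Schwann and neural markers went the other way, at 75.4 CPM (69.9 to 81.3) against 61.8 CPM. The lymphocyte genes CD3E and IL7R had no UMI in them. No doublet caller was used, but 243 of the cells (13.7%) held at least 4 UMIs from at least 2 markers of another cell class, most often granulosa (136 cells) or pericyte (74 cells), compared with 271 of the WFDC1 SPON2 C7 cells (16.9%). HBB, the beta-globin of red cells, was at 1843 CPM, 2371 in ending 1 and 121 in ending 2, and 13255 CPM in all other cells. Red cell RNA was thus present in stromal barcodes, mostly in ending 1, and its part in the results below was not tested.

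The 5 genes of the rule were unequal in how widely they occurred. Their values chose the cells and are given as a description. POSTN was at 1337 CPM (1556 in ending 1 and 622 in ending 2), OGN at 1110 CPM (1152 and 975), LUM at 669 CPM (622 and 822), RSPO3 at 196 CPM (234 and 70.6) and ASPN at 108 CPM (112 and 97.5). POSTN and RSPO3 were thus lower in ending 2 than in ending 1, and LUM higher. The cells held a median of 12 UMIs of the 5 genes and up to 199, and 133 of them had all 5 genes, 540 had 4, 659 had 3 and 441 had 2. The 99 cells just inside the rule, with 4 UMIs, had POSTN at 385 CPM, OGN at 563 CPM and COL1A1 at 9157 CPM. The 81 cells just outside it, with 3 UMIs, had 302, 593 and 8919 CPM.

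A value that the rule did not fix was obtained by choosing the cells with 4 of the genes and reading the fifth, with both gates rebuilt that way. POSTN then stood at 1338 CPM in the chosen cells and 145 CPM in the WFDC1 SPON2 C7 cells, a ratio of 9.22 (8.78 to 9.68). Within the endings the ratio was 2.46 (2.30 to 2.64) and 5.96 (5.43 to 6.54). LUM was at 645 against 139 CPM, with ratios of 2.67 and 6.08 within endings 1 and 2. RSPO3 was at 171 against 20.7 CPM, with ratios of 1.93 (1.55 to 2.41) in ending 1 and 3.42 in ending 2. OGN, at 1147 against 537 CPM, differed least, and its ratios were 1.28 and 2.15. ASPN was at 99.3 against 19.3 CPM, with a ratio of 1.33 (1.03 to 1.74) in ending 1 and 5.805 in ending 2. Each of the 5 genes was thus higher in cells chosen by the other 4 in both endings, and by more in ending 2.

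**Figure D1:**
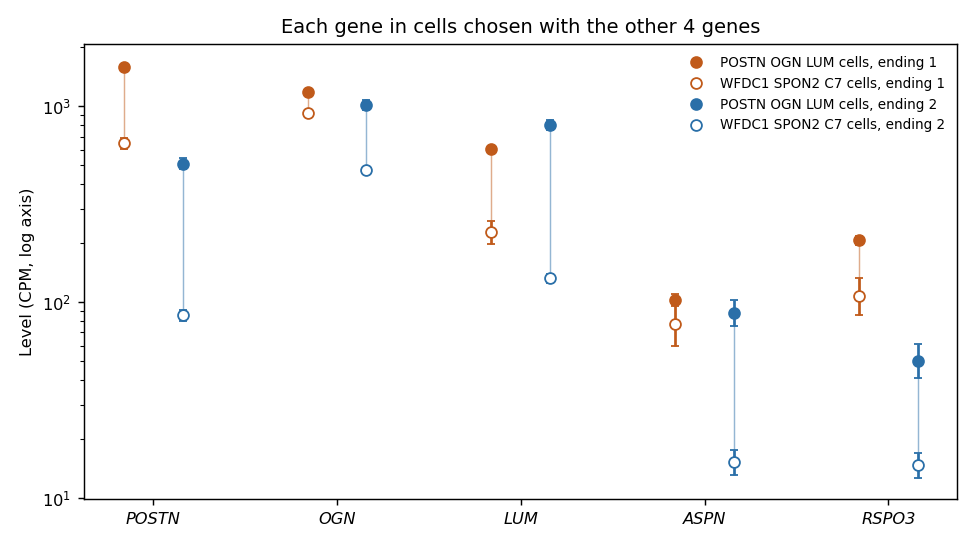
The vertical axis gives the level in CPM on a log axis, and each gene on the horizontal axis was read in cells chosen with the other 4 genes. Filled points are POSTN OGN LUM cells and open points WFDC1 SPON2 C7 cells, with exact Poisson 95% intervals as bars. Filled points lie above open ones for all 5 genes in both endings, and the gap is narrowest for ASPN and OGN in ending 1. The 5 genes had been grouped with earlier results of these data known.

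Some of the genes were found more often in single cells that held another of them. All 3725 collagen-rich cells with enough RNA were thinned to 2000 UMIs so that depth did not differ. LUM was found in 69.8% (64.9 to 74.3) of the 387 cells with RSPO3 and in 28.0% (26.5 to 29.6) of those without. Within the endings the shares were 75.0% against 36.5% and 49.4% against 22.2%. POSTN was found in 71.6% of the cells with RSPO3 and 36.8% of those without, but the shares lay closer within ending 1, at 84.1% against 64.5%, and within ending 2, at 22.8% against 17.8%. OGN, at 80.9% against 67.1%, and ASPN, at 16.3% against 10.4%, hardly differed in ending 1 (84.1% against 80.4% for OGN and 17.9% against 17.0% for ASPN) and more in ending 2 (68.4% against 58.0% and 10.1% against 5.85%). C7, a complement gene of the other set, was also more often found in cells with OGN than without, at 63.6% against 57.1%, and in those with LUM, at 64.6% against 60.04%.

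The first comparison set the cells against all others in the ovary, which asks what marks this stroma within the organ. Among 3810 genes at 50 CPM or more in either group, with the 13 genes of the rule left out, 268 (7.03%) were at least 2-fold higher in POSTN OGN LUM cells and 290 (7.61%) at least 2-fold lower, with 10 CPM added to both groups before the ratio was taken. Within ending 1 the shares were 9.16% higher and 10.0% lower, and within ending 2 they were 6.76% and 6.86%. Of the 268, 267 were higher in both endings and 196 at least 2-fold so. The median log2 ratio of all genes compared was -0.09. The median mitochondrial share of a cell's UMIs was 6.14% in POSTN OGN LUM cells and 10.7% in all other cells. Of 21 immediate early and heat shock genes, which respond to handling and stress, 6 were at least 2-fold higher (median 0.75), FOS among them at 7147 against 2474 CPM. The part of either in the comparison was not tested.

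Most collagen and matricellular genes were higher than in all other cells. Of 11 other collagen genes compared, 8 were at least 2-fold higher, with a median log2 ratio of 2.03. Among them were the fibril-associated COL14A1 at 741 CPM (845 in ending 1 and 401 in ending 2) against 79.3 CPM, and the microfibrillar COL6A1 at 223 against 32.5 CPM and COL6A3 at 138 against 15.3 CPM. COL26A1 alone was lower, at 13.8 against 51.2 CPM. Of 20 elastic fibre and matricellular genes, 17 were higher and none lower (median 1.79). MFAP4, a microfibril-associated protein, was at 478 against 46.1 CPM, the fibulin FBLN1 at 647 against 85.0 CPM, and TGFBI, which binds collagens and integrins, at 191 against 20.3 CPM. The proteoglycan list held 4 genes besides those of the rule, of which DCN, biglycan (BGN, 104 against 27.9 CPM) and fibromodulin (FMOD, 97.3 against 17.7 CPM) were higher. Genes for collagen processing were higher in 6 of 13 cases, among them LOX, which crosslinks collagen and elastin, and PCOLCE, an enhancer of procollagen cleavage.

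Signalling genes went in both directions. Of 12 genes of PDGF, FGF and IGF signalling, 8 were higher, such as IGF2 at 2190 against 502 CPM and IGFBP3, a carrier of insulin-like growth factors, at 366 against 45.9 CPM, while IGFBP2 was lower at 157 against 352 CPM. Of 9 WNT genes, the ligand WNT4 and the secreted regulators SFRP1, SFRP2 and DKK3 were higher. SFRP1, a WNT antagonist, was at 1173 against 291 CPM and WNT4 at 51.0 against 5.47 CPM. WNT4 was on the list of granulosa markers, yet stood at 2.31 CPM in cells chosen by those markers, a choice in which WNT4 itself took part. The hedgehog co-receptors BOC (102 against 14.0 CPM) and CDON (85.9 against 36.2 CPM) were higher, and the hedgehog target GLI1, too low to be compared, was at 33.5 against 4.69 CPM. In the TGF-beta and BMP list of 14 genes, 4 were higher, among them the co-receptor TGFBR3 at 262 against 62.1 CPM. The receptor BMPR1B, the activin antagonist FST and the ligand BMP2 were lower, at 11.4 against 74.3, 25.3 against 70.0 and 19.2 against 53.2 CPM.

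Stromal transcription factors were mostly higher. Of 19 stromal factors compared, 12 were higher (median 1.32), including NR2F1 at 280 against 40.2 CPM and OSR1 at 58.5 against 14.8 CPM, and EMX2 was lower at 63.8 against 167 CPM. Of the 3 theca and steroidogenic genes that passed the level filter, 2 were at least 2-fold higher and the third was lower in both endings. The 2 were DLK1, a transmembrane protein of the EGF family, at 651 against 99.2 CPM and the chemokine CXCL12 at 485 against 73.4 CPM. CYP17A1, which makes androgen precursors, and HSD3B2 were too low to be compared, at 1.44 against 10.2 CPM and 1.55 against 3.81 CPM. After thinning to 2000 UMIs a CYP17A1 UMI was found in 0.318% of the cells and 0.328% of all other cells, and an HSD17B1 UMI in 6.35% and 4.71%. FDX1, on the same list, had a UMI in 15.8% and 17.9%. Of 20 adventitial fibroblast genes, 7 passed the level filter, and all 7 were higher. Among them were S100A6 at 355 against 92.9 CPM and CD34 at 83.9 against 26.4 CPM. Also higher were 8 of 11 smooth muscle genes and 9 of 12 proteases and inhibitors, FAP among them at 82.9 against 6.77 CPM. A gene low in all other cells, such as CD34 or FAP, passed the filter only because it was high in the chosen cells. This favours higher ratios in such lists. The 15 interferon genes had a median of -0.74 over all cells, -1.07 in ending 1 and 0.31 in ending 2, so their direction turned with the ending. Both cell cycle lists were below 0, with medians of -0.73 over 8 G2/M genes and -1.0 over 9 S-phase genes.

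**Figure D2:**
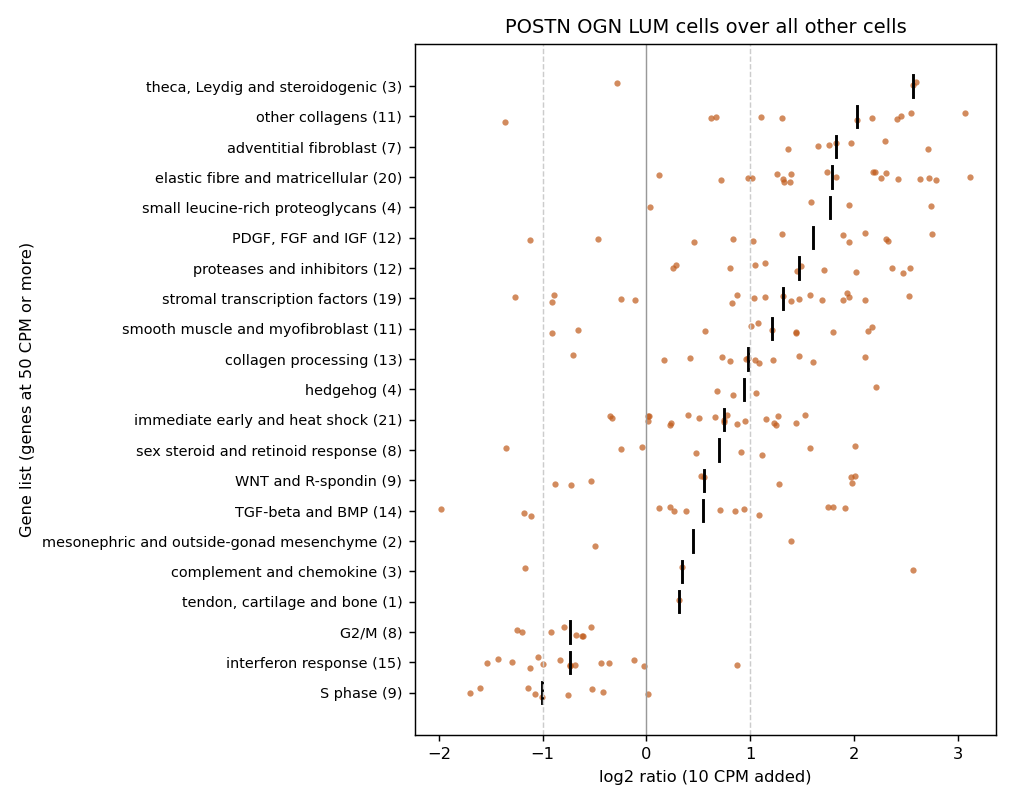
Each point is a gene at 50 CPM or more, the horizontal axis gives its log2 ratio of POSTN OGN LUM cells over all other cells, and rows are gene lists with the number of genes in brackets. Black bars are medians and dashed lines mark 2-fold. Matrix and growth factor lists lie mostly to the right, and the G2/M, S-phase and interferon lists to the left, although the interferon median was 0.31 within ending 2.

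The 15 genes with the highest ratio to all other cells were ITM2A, MGP, MFAP4, ALCAM, COL14A1, PLAC9, PMP22, OLFML3, FBLN1, IGFBP3, DCN, TGFBI, GPC3, PDE5A and CCDC80. ITM2A, a membrane protein, was at 593 CPM (581 and 635 in the endings) against 43.3 CPM in all other cells. Its level was 453 CPM in cells with lymphocyte markers and 178 CPM in those with endothelial markers, so it was not high in stroma alone. MGP, matrix Gla protein, an inhibitor of calcification, was at 378 CPM (310 and 601) against 24.7 CPM, but at 372 CPM in cells with ovarian surface epithelium markers. SFRP1 was higher in that epithelium than in the stroma, at 1298 CPM. LUM had no UMI in the 95 surface epithelium cells, where 3 counts are 8.34 CPM. POSTN was at 142 CPM there and at 769 CPM in the 6 cells with Schwann cell markers. Both genes are in the rule, and the marker-chosen cells were taken from outside it, so these values are partly set by the rule. Of the POSTN OGN LUM cells, 30 held at least 4 UMIs from at least 2 surface epithelium markers.

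**Figure D3:**
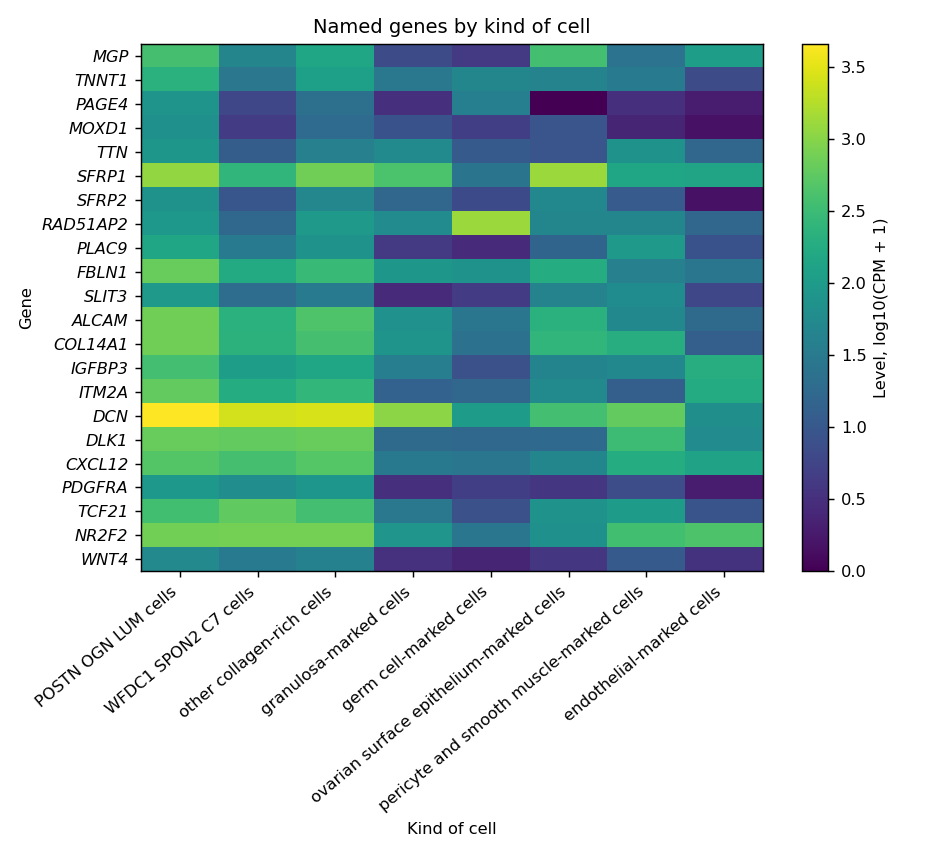
Colour gives the level of each gene as log10 of CPM plus 1 in 8 kinds of cell, the last 5 chosen by marker genes outside both stromal rules. The 3 collagen-rich kinds share DCN, DLK1, CXCL12, PDGFRA, TCF21, NR2F2 and WNT4, while MGP and SFRP1 are also high in surface epithelium and RAD51AP2 in germ cells.

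The second comparison set the cells against the WFDC1 SPON2 C7 cells, the other collagen-rich kind. Over all cells, 60 of 3392 genes (1.77%) were at least 2-fold higher and 49 (1.44%) at least 2-fold lower. The counts were smaller within the endings, with 13 higher (0.393%) and 8 lower (0.242%) in ending 1, and 43 higher (1.30%) and 13 lower (0.394%) in ending 2. Of the 60 genes, 48 were higher in both endings and 8 were at least 2-fold higher in both. Of the 49, 32 were lower in both and 1 at least 2-fold lower in both.

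Matrix, WNT-regulating and guidance genes were among the 8 that were 2-fold higher in both endings. MOXD1, a monooxygenase-like protein of the secretory pathway, was at 70.3 against 5.09 CPM in ending 1 and at 62.5 against 3.26 CPM in ending 2. In the 145 WFDC1 SPON2 C7 cells of ending 1, 3 counts are 3.82 CPM, so the 5.09 CPM rests on few UMIs. SLIT3, a ligand of ROBO receptors, was at 97.9 against 15.3 CPM in ending 1 and 86.7 against 19.4 CPM in ending 2. IGFBP3 was at 378 against 129 CPM and at 325 against 107 CPM. These 3 genes hardly differed between the endings of the chosen cells.

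MGP was at 310 against 82.8 CPM in ending 1 and at 601 against 42.2 CPM in ending 2, so its contrast was sharper in the latter. FBLN1 was at 613 against 299 CPM and at 756 against 161 CPM. SFRP1 was at 1244 against 614 CPM and at 943 against 234 CPM. PLAC9, at 146 against 54.8 CPM and 144 against 29.7 CPM, and PAGE4, at 93.3 against 30.6 CPM and 30.3 against 3.34 CPM, completed the set. CST3, the protease inhibitor cystatin C, was 2-fold higher within each ending, at 658 against 317 CPM and at 1476 against 511 CPM, but not over all cells, where it was at 850 against 499 CPM. It was chosen after its values were seen. The summed surface epithelium markers moved with this comparison, at 78.8 CPM in the POSTN OGN LUM cells and 33.2 CPM in the WFDC1 SPON2 C7 cells over 8 markers, and their part in the MGP and SFRP1 values was not tested. The same held for the Schwann and neural markers, at 75.4 against 39.1 CPM, the granulosa markers, at 279 against 189 CPM, and the erythroid markers, at 1867 against 533 CPM, whose part in this comparison was not tested either. Within ending 1 the granulosa markers were at 266 against 260 CPM and the erythroid markers at 2401 against 6541 CPM. In ending 2 they were at 318 against 184 CPM and at 123 against 139 CPM. The surface epithelium markers were at 64.2 against 22.9 CPM in ending 1 and at 126 against 33.9 CPM in ending 2. Without the cells that held markers of another class, 71 of 3365 genes were higher and 54 lower.

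For 6 of the other 7 genes among the 15 highest, all but ITM2A, the ratio over all cells exceeded that within either ending. ALCAM, a cell adhesion molecule, was at 730 against 218 CPM over all cells, but at 870 against 772 CPM in ending 1 and at 272 against 182 CPM in ending 2. COL14A1 was at 845 against 525 CPM and at 401 against 205 CPM. The troponin TNNT1 was at 259 against 165 CPM and at 72.4 against 18.4 CPM, and titin (TTN) at 104 against 62.4 CPM and 26.5 against 7.77 CPM. SFRP2 and ITM2A had log2 ratios of 0.45 and 0.81 in ending 1 and of 1.92 and 1.82 in ending 2. RAD51AP2, at 87.0 against 15.4 CPM over all cells, stood at 1296 CPM in cells with germ cell markers. A single cell held 19.1% of the 784 RAD51AP2 UMIs of the POSTN OGN LUM cells, and 17.9% of these cells had any. The summed germ cell markers were also higher in the POSTN OGN LUM cells, at 106 against 58.5 CPM, and their part in the RAD51AP2 value was not tested.

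**Figure D4:**
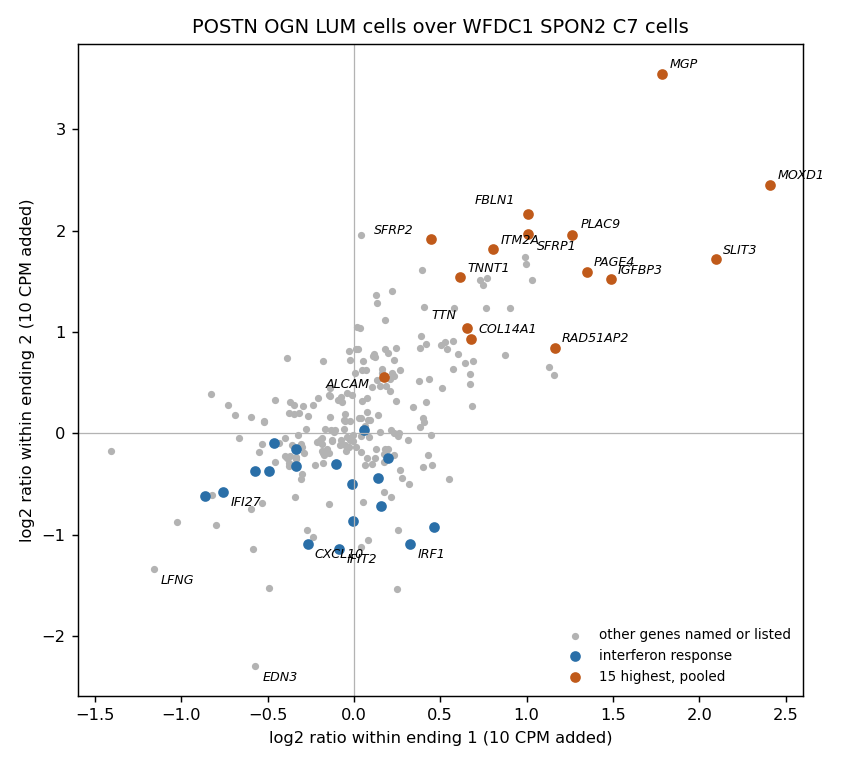
The horizontal axis gives the log2 ratio of POSTN OGN LUM cells over WFDC1 SPON2 C7 cells within ending 1 and the vertical axis the same within ending 2, for genes of the lists and named genes at 50 CPM or more. MOXD1, SLIT3 and MGP lie high on both axes, while ALCAM and the interferon genes, far apart over all cells, lie near 0 in ending 1.

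By list, few genes differed between the 2 kinds of stroma. Of 21 elastic fibre and matricellular genes, CCDC80, VCAN, FNDC1, LTBP1, FBLN1 and MFAP4 were at least 2-fold higher over all cells. VCAN, the proteoglycan versican, was at 545 against 470 CPM in ending 1 and at 282 against 192 CPM in ending 2, and the difference over all cells, 483 against 209 CPM, was larger than in either ending. Of the 10 other collagens, COL14A1 and COL5A1 were higher, and of 15 collagen processing genes none was higher or lower by 2-fold. The proteases ADAMTS5, PLAT and FAP were higher, and ADAM12 was lower at 35.7 against 93.9 CPM over all cells, but higher in ending 1 at 28.2 against 22.9 CPM. DHRS3, a retinaldehyde reductase, was lower at 110 against 247 CPM, and at 105 against 129 CPM in ending 1. DLK1 (651 against 594 CPM), CXCL12 (485 against 380 CPM), NR2F2 (753 against 777 CPM), PDGFRA (87.9 against 61.2 CPM) and TCF21 (355 against 582 CPM) differed by less than 2-fold over all cells. Within endings 1 and 2 the log2 ratio of DLK1 was -0.03 and 0.81, and that of CXCL12 0.12 and 0.75.

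Among the genes that were lower, LFNG, a glycosyltransferase that modifies NOTCH receptors, was the one at least 2-fold lower in both endings. It was at 18.4 against 53.5 CPM in ending 1 and at 23.2 against 74.0 CPM in ending 2. EDN3, which encodes the peptide endothelin 3, had the lowest ratio, at 2.00 CPM (1.18 to 3.16) against 61.1 CPM, and was at 1.01 against 6.37 CPM and at 5.21 against 64.7 CPM within the endings. The contrast in EDN3 thus rested mainly on ending 2.

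Interferon-induced genes filled most of the remaining places among the 15 lowest, and their contrast was much smaller within the endings. All 18 interferon genes compared were at least 2-fold lower over all cells, with a median log2 ratio of -1.82, but none was in ending 1 (median -0.10) and 3 were in ending 2 (median -0.47). IFI27 was at 375 against 641 CPM in ending 1 and at 3210 against 4786 CPM in ending 2. BST2, an antiviral membrane protein, was at 12.03 against 20.4 CPM and at 482 against 515 CPM. IFIT1 was at 35.5 against 35.7 CPM and at 266 against 492 CPM. GBP1, an interferon-induced guanylate-binding protein, is itself in the rule. With GBP1 left out of both gates, which was decided once the values were known, the medians were -1.36 over all cells, -0.06 in ending 1 and -0.12 in ending 2.

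The same genes separated the endings among the POSTN OGN LUM cells themselves. Of 3499 genes, 74 (2.11%) were at least 2-fold higher in ending 1 than in ending 2 and 87 (2.49%) lower. BST2, ISG15 and IFI27, at 12.03, 32.7 and 375 CPM in ending 1 and 482, 418 and 3210 CPM in ending 2, were lowest in ending 1. This was not particular to the stroma, since IFI27 was at 1013 and 3509 CPM in all other cells of the endings. HES1, a target of NOTCH signalling, was at 1081 and 336 CPM, and at 559 and 383 CPM in all other cells. Besides HBB, the genes highest in ending 1 included TNNT1, HES1, ALCAM and TTN, which were chosen after their values were seen. Animal, age and library cannot be told apart in these values.

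The POSTN OGN LUM cells were not uniform. POSTN had the most UMIs of the 5 genes in 677 cells, OGN in 606, LUM in 210, RSPO3 in 82 and ASPN in 10, and 188 cells had a tie. In ending 1 POSTN led in 43.2% of the cells and LUM in 7.98%, and in ending 2 POSTN led in 18.2% and LUM in 27.2%. Cells led by OGN had more smooth muscle RNA than those led by POSTN, with smooth muscle actin (ACTA2) at 323 against 78.2 CPM and the muscle myosin MYH11 at 144 against 37.5 CPM. In ending 2, ACTA2 was at 109 and 108 CPM in the OGN-led and POSTN-led cells, so that difference was seen in ending 1 only. MYH11 was among the pericyte markers. CCDC80, a matrix protein, was at 815 CPM in POSTN-led and 339 CPM in OGN-led cells, and higher in both endings (793 against 326 CPM and 975 against 377 CPM). MGP was at 488 and 168 CPM in these cells, and at 434 against 94.5 CPM and 872 against 403 CPM within the endings.

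Cells with RSPO3 were also set against those without it. The gate was rebuilt without RSPO3, and 1522 of the resulting 1701 cells were deep enough to be thinned to 2000 UMIs. Of these, 300 held an RSPO3 UMI, 271 in ending 1 and 29 in ending 2, and 1222 did not. With 29 cells of 2000 UMIs each, the values for cells with RSPO3 in ending 2 rest on few UMIs of most genes. This division was chosen after the data were seen. Of 3393 genes, 35 (1.03%) were at least 2-fold higher in the cells with RSPO3 and 17 (0.501%) at least 2-fold lower.

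MOXD1 was at 230 CPM in cells with RSPO3 and 49.1 CPM in those without, a ratio of 4.68 (3.64 to 6.03), and at 225 against 51.1 CPM and 276 against 42.9 CPM within the endings. PLAT, tissue plasminogen activator, was at 245 against 56.9 CPM, a ratio of 4.31 (3.39 to 5.47), and higher in both endings. MGP was at 1010 against 290 CPM, but at 707 against 531 CPM in ending 2. SLIT3 was at 258 against 81.4 CPM, with 275 against 82.7 CPM in ending 1 and 103 against 77.6 CPM in ending 2. PAGE4 was at 203 against 63.0 CPM, with 218 against 77.8 CPM and 69.0 against 18.2 CPM within the endings. MOXD1, SLIT3, MGP and PAGE4, 4 of the 8 genes that set the POSTN OGN LUM cells apart in both endings, were thus also higher where RSPO3 was found. LUM, a gene of the gate, was at 1575 against 654 CPM, but at 1086 against 842 CPM in ending 2. The other genes among the 10 highest were the ligand BMP3, TUBB3, the ferritin receptor SCARA5, PGM5 and the sodium-calcium exchanger SLC8A1. TUBB3 was on the list of Schwann and neural markers.

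ACTA2 and TAGLN had the lowest ratios. ACTA2 was at 33.3 CPM in cells with RSPO3 and 163 CPM in those without, a ratio of 0.204 (0.123 to 0.320), and transgelin (TAGLN) at 113 against 403 CPM, a ratio of 0.281 (0.217 to 0.360). In ending 1 TAGLN was at 113 against 406 CPM and in ending 2 at 121 against 394 CPM. Of 10 smooth muscle and myofibroblast genes compared, ACTA2, TAGLN and MYH11 were at least 2-fold lower and none was higher by that much. The list's median log2 ratio was -0.59, against 0.00 over all genes compared, with -0.66 in ending 1 and -0.15 in ending 2. MYH11 was higher in ending 2, at 69.0 against 39.6 CPM, but the cells with RSPO3 held only 12 MYH11 UMIs in both endings together. NEXN, an actin-binding protein, COL4A1 of the basement membrane, EDIL3, the sodium channel SCN7A, PLAAT3 and PRSS35 were also lower. IFI27 and MX1 were among the 10 lowest too, but within the endings IFI27 was at 190 against 362 CPM and at 2810 against 3375 CPM, smaller contrasts than over all cells (443 against 1109 CPM).

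**Figure D5:**
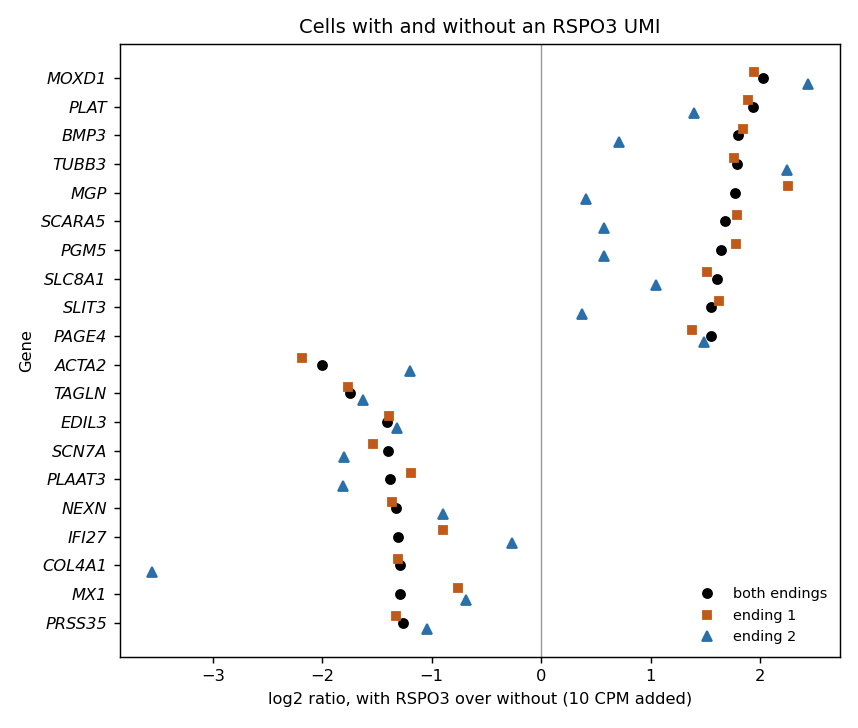
The horizontal axis gives the log2 ratio of cells with an RSPO3 UMI over cells without, for the 10 genes highest and the 10 lowest among those with the same direction in both endings. Circles are all cells, squares ending 1 and triangles ending 2. MOXD1, PLAT, TUBB3 and PAGE4 lie far to the right, and ACTA2 and TAGLN far to the left, in both endings, while ending 2 rests on 29 cells with RSPO3.

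Blood, matrix, stress, mitochondrial and interferon genes ranked highest in variation between single cells. In 1574 cells thinned to 2000 UMIs, 1290 genes were ranked by the ratio of variance to mean, whose median was 1.08. HBB had the highest ratio, 442, with 449 in ending 1 and 1.04 in ending 2. Before thinning, a single cell held 18.7% of the HBB UMIs of all POSTN OGN LUM cells. COL1A1 followed at 11.7 and the immediate early gene FOS at 8.32, with 3 mitochondrial genes, COX3, COX2 and CYTB, between 6.40 and 6.95. The ratio was not adjusted for level, and these 5 genes were abundant. Their means per thinned cell were 26.2 UMIs for COL1A1, 14.7 for FOS, 28.1 for COX3, 23.1 for COX2 and 26.4 for CYTB. POSTN was at 6.04 (6.02 in ending 1 and 2.71 in ending 2), IFI27 at 5.72, COL3A1 at 5.49, SFRP1 at 5.13 and MGP at 4.99. KISS1, which encodes kisspeptin, was at 4.74, with IRF1, EGR1 and ATP6 close to it. IFI27 fell to 2.32 and 2.77 within the endings, whereas SFRP1 stayed at 5.21 and 4.61 and MGP at 4.87 and 5.27.

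RNA of G2/M genes was found in fewer of these cells than of all other cells. After thinning, 15.5% (13.7 to 17.4) held at least 2 UMIs from at least 2 G2/M genes, compared with 9.50% (8.05 to 11.1) of WFDC1 SPON2 C7 cells and 29.6% (28.8 to 30.4) of all other cells. At full depth 30.5%, 28.4% and 46.4% met this rule, while the median depth was 3416 UMIs in the POSTN OGN LUM cells and 5440 in the WFDC1 SPON2 C7 cells. Within the endings the order of the stromal kinds was not kept, with 17.1% (15.05 to 19.3) against 19.3% (12.98 to 26.9) in ending 1 and 9.80% (6.88 to 13.4) against 8.52% (7.08 to 10.1) in ending 2. The intervals overlapped in both. Thinning left out 199 of the 1773 POSTN OGN LUM cells as too shallow, 189 of them in ending 1. It left out a larger part of all other cells, 6082 of 19194, with 3426 of them in ending 1. The share of all other cells was 41.0% in ending 1 and 20.7% in ending 2.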

How the data were processed

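Counts of UMIs were deposited without normalization, for each gene in each cell. The authors mapped the reads to Macaca_fascicularis_5.0 with Cell Ranger 3.0.2, and Seurat is named in their notes. The table holds 18446 genes, none seen in fewer than 3 cells, and 20967 cells, of which 16292 have 200 to 3000 genes, the limits in the study's methods. All cells were used, since the rule names all of them. No correction for free RNA and no doublet caller was applied. Members, gene lists and named genes were chosen with earlier results of these data known. UMIs were summed over cells and given as CPM with exact Poisson 95% intervals, ratios with exact binomial (Clopper-Pearson) intervals. Genes at 50 CPM in either group were compared after adding 10 CPM, and a ratio of 2 was counted as higher or lower. Named genes were those of the rule, list genes that lead in level or ratio, the 15 highest and 15 lowest by ratio with the same direction in both endings, and the 15 most variable. Genes with near-identical copies, such as HLA-E and the IFIT genes, are uncertain where reads could be shared. Genes missing from the table, such as STAR and ELN, were not analysed here. Sequences are not shown. The intervals and the thinning were tested on simulated data. Python 3.11.15, numpy 2.4.6, scipy 1.17.1, pandas 2.3.3 and matplotlib 3.10.9 were used. Alternatives were limits on genes and mitochondrial UMIs, removal of cells with other markers, a stricter gate, single endings, means over cells, other level minimums and added CPM, and other thinning.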

Additional observations from a re-analysis of the deposited data

How the results depend on the processing

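Against all other cells, the counts of 268 higher and 290 lower genes moved by less than 1.5 times within either ending, with the stricter gate (8 UMIs from 3 genes) and without cells that held markers of another class. The lower count, 290 of 3810, fell to 168 of 3481 with only cells of 200 to 3000 genes and to 169 of 3623 with at most 10% mitochondrial UMIs. Of 7169 genes at 20 CPM or more, 503 were lower, and of 760 genes at 200 CPM or more, 93 were higher and 48 lower. Against WFDC1 SPON2 C7 cells, 60 genes were higher and 49 lower of 3392. These became 94 and 74 of 6519 at 20 CPM, and 24 and 17 of 696 at 200 CPM, so the share called rose with the minimum. Within single endings, 13 and 8 of 3308 genes were called in ending 1, and 43 and 13 of 3300 in ending 2. Giving the endings equal weight, an alternative chosen after seeing the data, left 25 higher and 3 lower genes of 3265. Without GBP1 in the gates, also chosen then, 54 of 3370 were higher and 35 lower. None of the 37 log2 ratios followed by gene changed sign among those past 2-fold over all cells. For the 15 highest and 15 lowest genes this was fixed in advance for single and equally weighted endings. They had been chosen for the same direction in both. Of all genes called, 12 of the 60 higher and 17 of the 49 lower did not keep their direction in both endings. Of the 37 ratios, 35 moved beyond their counting interval within ending 1 and 31 within ending 2. The share of cells with G2/M UMIs, 15.5%, was 9.80% within ending 2, 8.34% after thinning to 1000 UMIs and 30.5% without thinning. No paired analysis was possible because the columns carry no replicate numbers and no test was made. Of the 2 kinds of stroma within each ending, the WFDC1 SPON2 C7 cells of ending 1 had the fewest summed UMIs, where 3 counts are 3.82 CPM.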

Other observations

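Outside the collagen level, 127 cells met the rest of the rule, 61 in ending 1 and 66 in ending 2. They had a median of 10567 UMIs and 26.5 UMIs of the 3 collagens per 10000. In them POSTN was at 262 CPM (exact Poisson 95% interval 240 to 285), OGN at 170 CPM, RSPO3 at 46.0 CPM and LUM at 39.3 CPM. Of these 127 cells, 68 held granulosa markers, 37 germ cell markers, 30 pericyte markers, 17 surface epithelium markers and 17 endothelial markers. Among all cells outside the POSTN OGN LUM rule, 32.5%, 20.5%, 9.79%, 4.94% and 6.17% held these markers. Those cells had a median of 3800 UMIs, and the part of depth in the counts was not tested.

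A placental hormone gene, CSH2, appeared among the POSTN OGN LUM cells with 171 UMIs in 24 cells, of which a single cell held 107 (62.6%). The surface epithelium genes ITLN1 and MSLN were unevenly spread too, with 44.8% of 143 ITLN1 UMIs in 1 cell and 15.3% of 432 MSLN UMIs in 1 cell. In ending 1 and ending 2, ITLN1 was at 2.46 and 59.7 CPM and MSLN at 36.5 and 85.2 CPM. These genes were chosen after their values were seen.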
